A study of Mus musculus with 8 samples.

Results

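The genes described here encode the machinery that docks, primes and fuses synaptic vesicles. They were taken by symbol from a table of RNA levels in mouse retinal ganglion cells: every synaptotagmin (Syt), syntaxin (Stx), syntaxin-binding protein (Stxbp) and VAMP gene with a number, and the synapsins, complexins, RIM, Munc13, SV2 and SNAP genes together with Syp, Bsn, Pclo, Nsf and Snap91. The rule found 74 of 24942 rows, which carry 73 symbols because Pclo stands under 2 identifiers. GENCODE M21 lists Vamp7-ps and Stxbp3b among them as processed pseudogenes, whose reads may be shared with their parent genes.

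The study compared ganglion cells of NPC1-deficient mice with those of wildtype littermates, all at postnatal day 8 and all of the strain balb/cnctr-npc1m1n/j. NPC1 is the lysosomal membrane protein that passes cholesterol out of the lysosome. In this strain its loss is inherited, so every cell type of the animal lacks it, not ganglion cells alone. The cells were isolated by immunopanning, that is, by letting them bind to an antibody-coated dish, and their RNA was extracted without culture. There were 4 libraries of NPC1-deficient and 4 of wildtype cells. Whether the libraries stand for separate animals is not in the labels. A p-value here therefore measures the spread between these libraries, part of which may be technical.

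Release of transmitter rests on SNARE proteins. VAMP on the vesicle winds together with syntaxin and SNAP-25 on the plasma membrane, Munc13 (Unc13 genes) guides the assembly, synaptotagmins sense calcium, complexins hold the assembled complex, and the ATPase NSF takes it apart for another round. RIM, Bassoon and Piccolo form the scaffold of the release site, the active zone. Ganglion cells release glutamate from conventional synapses in the brain, whereas photoreceptors and bipolar cells of the retina release it at ribbon synapses, which use syntaxin 3 and the complexins 3 and 4.

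The promoters of 3 members are shown because the results turn on them: Rims1 and Cplx3 had the smallest p-values for genotype, and Nsf had the smallest p-value for a genotype difference that was unequal between library sets. Each line gives the 250 bases before the RefSeq start on the gene's own strand in GRCm38.p6. Capitals mark a GC box (GGGCGG) or an E-box (CACGTG), searched on both strands.
Rims1, chr1:22806159-22806408, minus strand: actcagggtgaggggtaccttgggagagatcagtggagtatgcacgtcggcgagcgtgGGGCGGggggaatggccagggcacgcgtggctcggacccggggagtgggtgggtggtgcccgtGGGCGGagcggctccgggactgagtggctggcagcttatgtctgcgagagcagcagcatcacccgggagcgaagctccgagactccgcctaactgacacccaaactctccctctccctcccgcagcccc
Cplx3, chr9:57606282-57606531, minus strand: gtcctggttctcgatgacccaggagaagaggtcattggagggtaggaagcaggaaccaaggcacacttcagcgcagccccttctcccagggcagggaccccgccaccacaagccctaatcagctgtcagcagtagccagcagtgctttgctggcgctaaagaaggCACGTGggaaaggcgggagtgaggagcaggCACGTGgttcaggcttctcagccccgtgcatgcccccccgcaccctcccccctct
Nsf, chr11:103954057-103954306, minus strand: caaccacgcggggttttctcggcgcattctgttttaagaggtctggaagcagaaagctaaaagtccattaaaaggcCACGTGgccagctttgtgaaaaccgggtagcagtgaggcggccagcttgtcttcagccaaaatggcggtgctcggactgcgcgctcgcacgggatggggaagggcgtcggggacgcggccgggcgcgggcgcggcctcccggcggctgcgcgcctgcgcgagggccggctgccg
The Rims1 window held 2 GC boxes and no E-box, that of Cplx3 held 2 E-boxes and no GC box, and that of Nsf held 1 E-box and no GC box. Windows were present for 54 of the 73 member symbols, taken as the first listed for each. Of these, 36 (66.7%) held a GC box, against 32.7% of all 32851 listed windows. The 2 shares are not counted alike, because all listed windows were used for the second and 1 per symbol for the first. Base composition was not matched either. The median GC content of all windows was 52.4%, against 68.0% in the window of Rims1, 62.8% in that of Cplx3 and 66.0% in that of Nsf. An E-box stood in 8 (14.8%) of the member windows, against 6.02% of all. The cAMP response element TGACGTCA was found in 1 member window (1.85%, against 1.55% of all) and TAATCC, a core that the photoreceptor factor CRX binds, in 3 (5.56%, against 6.25%). None of these motifs overlapped another in the 3 windows shown.

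Npc1 was read first as a check of the labels. It stood at 139.8, 70, 67.6 and 66.1 normalized reads in NPC1-deficient libraries 1 to 4, against 707, 754, 831 and 857 in wildtype 1 to 4, or 10.9% of the wildtype mean (log2 fold change -3.25, limma adjusted p = 3.23e-05). The strain field of the labels names the first 2 libraries of each genotype wildtype and the last 2 homozygous, which Npc1 goes against. Groups follow titles and descriptions here. Replicates 1 and 2 of both genotypes are called the first library set, and replicates 3 and 4 the second. Ganglion cell markers were abundant in every library: Rbpms lay between 21932 and 24180 in NPC1-deficient and between 20905 and 23628 in wildtype libraries, and Pou4f2 between 11296 and 12762 in NPC1-deficient and between 11048 and 11744 in wildtype libraries. The fold change was positive for 13 and negative for 3 of the 16 listed ganglion cell markers (median log2 fold change 0.055). Xist, which only female cells make, ran from 0 to 68.1 in NPC1-deficient and from 18.2 to 595 in wildtype libraries. The part of sex in the results below was not tested. In RNA of this kind, fewer cells of a type and less RNA per cell cannot be told apart.

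The release machinery was highly expressed, and a few paralogs carried each family. Levels are given per kilobase of exon, so that genes of unequal length can be set beside each other. Snap25 stood at 15636 ± 898 normalized reads per kb in NPC1-deficient and 15381 ± 409.6 in wildtype libraries (SD, n = 4 each), the highest of the 74 rows in wildtype. Vamp2, the VAMP of synaptic vesicles, followed with 13580.0 ± 827 and 14476 ± 1683 per kb, and Syt4, a synaptotagmin of dense-core and Golgi-derived vesicles, with 11842 ± 769 and 11525 ± 395. The spreads of Snap25 and Vamp2 in wildtype libraries overlap, so their order is not settled. Together the members took between 1.35% and 1.5% of all normalized reads in NPC1-deficient libraries and between 1.4% and 1.47% in wildtype libraries.

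Within families the ratios were steep. Vamp2 made up 88.6% of the summed VAMP level per kb in NPC1-deficient and 88.8% in wildtype libraries, and Vamp1, its close relative, 0.89% and 0.873%. The pseudogene Vamp7-ps held 4.79% and 4.69% of this sum. Exon length counts every annotated exon, 10167 bases for Vamp1 against 3809 for Vamp2, so exons that these cells do not use would lower a share. Cplx1 made up 89.5% and 87.2% of the complexins. Among synaptotagmins Syt4 led with 44.6% and 44.8%, ahead of Syt1, the fast calcium sensor, with 15.7% and 15.4%. Each of these shares differed by under 3 percentage points between genotypes.

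Among syntaxins no single gene led. Stx7, a syntaxin of endosomes, stood at 4461 ± 185 per kb in NPC1-deficient and 4348 ± 127 in wildtype libraries, next to Stx12 at 3516 ± 267 and 3529 ± 160.1 and Stx1a at 3364 ± 136 and 3172 ± 176 (SD, n = 4 each). Endosomal syntaxins thus stood beside one of the plasma membrane. Stx3, the syntaxin of ribbon synapses, was at 92.4 ± 5.55 and 99.9 ± 9.48 per kb. The active zone genes spanned a wide range. Bsn (Bassoon) was at 12 ± 1.84 and 10.3 ± 0.845 per kb and the longer Pclo (Piccolo) row at 7.2 ± 1.93 and 4.93 ± 1.52, whereas Rims4 was at 790.1 ± 37.6 and 818 ± 64.2. Counts were not made by strand, and an opposite-strand gene shares 16.8% of the exonic length of Syp, 14.5% of that of Syt4 and 32.3% of that of Stx18. Reads of such pairs cannot be told apart.

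**Figure D1:**
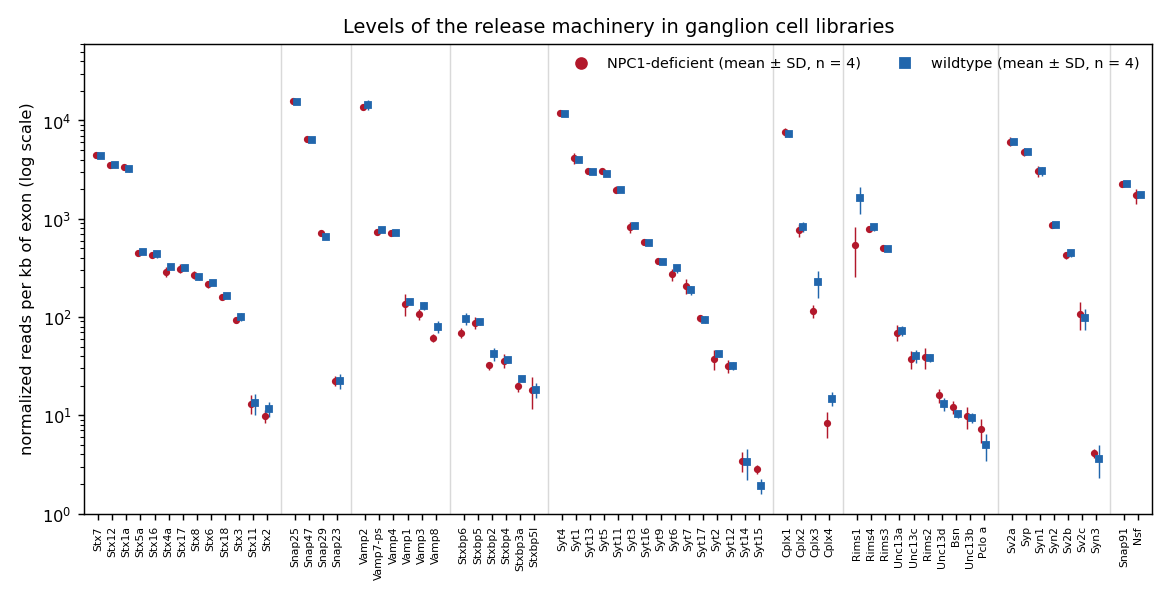
Level of 67 tested members in normalized reads per kb of exon (log axis), grouped by family and ordered by wildtype level. Points are means of 4 libraries with their SD, and the Pclo row without an exon length in the annotation is left out. Most pairs of points lie on top of each other, and Rims1 and Cplx3 are the widest apart among members over 100 per kb in wildtype.

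No member passed the test between genotypes. A filter on a mean of at least 10 normalized reads left 70 of the 74 rows, and Stx19, Syt10, Stxbp3b and Vamp5 were too low in both genotypes, with group means under 3. Of the 70, 0 were called by limma after Benjamini-Hochberg adjustment over all 15386 genes tested, where 16 genes (0.104%) were. At an unadjusted p under 0.05 there were 11 (6.76% of all genes), of which 3 were higher (2.39% of all genes) and 8 were lower (4.37% of all genes). The median log2 fold change over the 70 was -0.0093, against 0.0050 over all genes, and 54 of 70 (77.1%) lay within 0.2 of zero, against 81.9% of all genes. On the reads of the 6 libraries from which whole reads could be taken, the edgeR quasi-likelihood test also called 0, with 8 at an unadjusted p under 0.05. The share of all genes that goes with these 8 is not given. DESeq2 called 2, Cplx3 and Stxbp6, but it also called many more of all genes than edgeR did on these libraries, as the counts further below show.

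**Figure D2:**
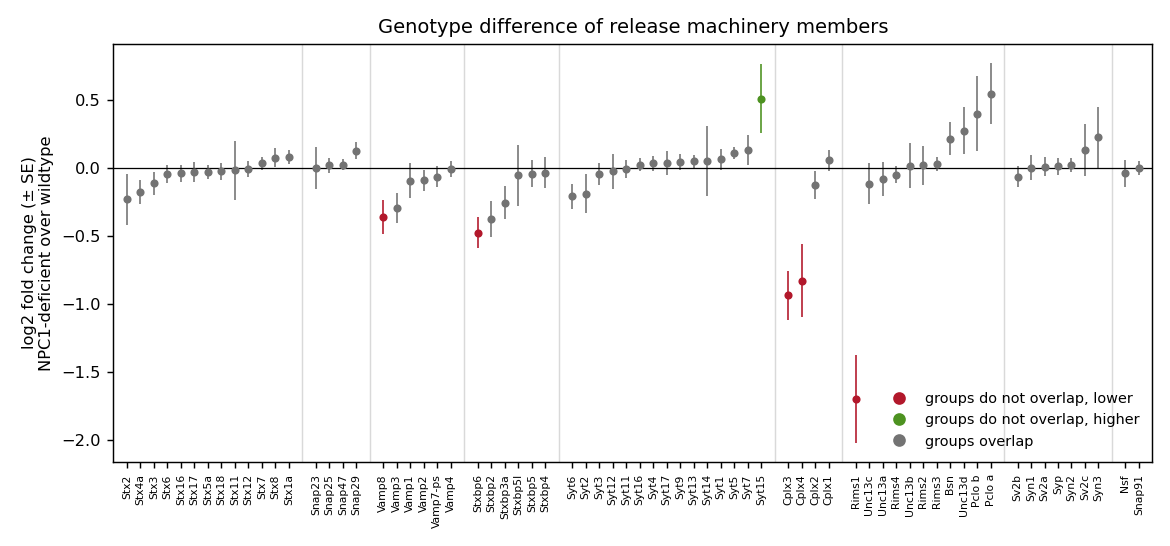
Log2 fold change (NPC1-deficient over wildtype) of 68 of the 70 tested members with its standard error from limma, by family. Colour marks members whose 4 NPC1-deficient and 4 wildtype values do not overlap. Rims1, Cplx3 and Cplx4 lie lowest, and none of the 70 passed after adjustment over all genes.

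The 2 SNARE partners on the plasma membrane and the one on the vesicle differed little by genotype. Snap25 had 114153, 107726, 101052 and 101792 normalized reads in NPC1-deficient libraries 1 to 4, against 106506, 105994, 100403 and 104919 in wildtype 1 to 4. Vamp2 had 56044, 50015, 51967 and 48879.5 in NPC1-deficient, against 55856, 49804, 50978 and 63915 in wildtype libraries, where wildtype 4 was the highest of the 8. Their log2 fold changes were 0.022 (SE 0.054) and -0.087 (SE 0.077), and both groups overlapped for each gene. Stx1a had 8595, 8951, 9460.4 and 8864 in NPC1-deficient and 7948, 8325, 8478 and 9075 in wildtype libraries (log2 fold change 0.085, SE 0.052). Vamp1 had 1881, 1326, 1223 and 1116 in NPC1-deficient and 1424, 1526, 1383 and 1457 in wildtype libraries. For Vamp1, NPC1-deficient 1 was the highest and NPC1-deficient 4 the lowest library of all 8.

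Priming and recycling genes differed more among NPC1-deficient libraries than between genotypes. Unc13a, which opens syntaxin and primes vesicles, had 1014, 1022, 709 and 760.0 normalized reads in NPC1-deficient and 1030.4, 801, 976 and 861 in wildtype libraries. Nsf had 17185, 15900.2, 12277 and 12260.4 in NPC1-deficient and 15031, 14123, 15027 and 14208 in wildtype libraries. For both genes the NPC1-deficient libraries split into a high pair (1 and 2) and a low pair (3 and 4), and for Nsf all 4 wildtype libraries lay between the pairs. Snap91, an adaptor that recovers vesicle membrane through clathrin, had 21004, 22272, 19775 and 19187 in NPC1-deficient and 20289.7, 20188, 20727 and 20817 in wildtype libraries, with the same split.

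The calcium sensors and complexins of conventional synapses showed this split as well. Syt1 had 37533, 39349, 30472 and 31481 normalized reads in NPC1-deficient and 34180.1, 33058, 32882 and 31691 in wildtype libraries. Syt2, a sensor of fast synapses, was much lower with 375, 306, 234 and 234 in NPC1-deficient and 352, 313, 307 and 314 in wildtype libraries. NPC1-deficient 1 and 2 had the 2 highest Syt1 values of all libraries and NPC1-deficient 3 and 4 the 2 lowest. Cplx1, which clamps and promotes fusion, had 19019, 17110.0, 15309 and 14899.6 in NPC1-deficient and 15860.1, 14759, 15840.4 and 17052 in wildtype libraries. Cplx2 had 4440.2, 3924, 3172 and 3462 in NPC1-deficient and 4735, 3748, 3965 and 3838 in wildtype libraries. Their log2 fold changes were 0.058 (SE 0.075) and -0.12 (SE 0.10).

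Genes for proteins of the vesicle membrane and surface were split in the same way among NPC1-deficient libraries. Syp (synaptophysin) had 28462, 24774, 23611 and 23174 normalized reads in NPC1-deficient and 24890.2, 23659.7, 25498 and 24643 in wildtype libraries. Sv2a, a vesicle glycoprotein, had 32016, 29184, 25936 and 25771 in NPC1-deficient and 27479, 27746, 28873 and 27384 in wildtype libraries. Syn1 (synapsin 1), which ties vesicles into the reserve pool, had 11744, 10434, 8892 and 9279 in NPC1-deficient and 11058, 8769.6, 9611 and 10755 in wildtype libraries. In all 3 genes NPC1-deficient 1 was the highest library of all. Syn2 had 6632, 6184, 5947 and 5732 in NPC1-deficient and 5995, 5929.8, 5998 and 6083 in wildtype libraries. The log2 fold changes of these 4 genes lay between 0.0031 and 0.027, smaller than each one's standard error. For Syp, Sv2a and Syn1 the sign turned with quantile scaling, as it did for Snap25 and Snap91.

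The large scaffolds stood at low counts. Bsn had 168, 175, 233 and 191 normalized reads in NPC1-deficient and 153, 162, 157 and 183 in wildtype libraries (log2 fold change 0.22, SE 0.12). The Pclo row ENSMUSG00000061601 had 123, 125, 197 and 201 in NPC1-deficient and 80.9, 93.9, 109 and 159 in wildtype libraries (0.55, SE 0.23, limma adjusted p = 0.618). The Pclo row ENSMUSG00000098239 had 63.5, 60, 112 and 86.7 in NPC1-deficient and 55.9, 91.8, 35.4 and 65.5 in wildtype libraries (0.40, SE 0.28). The groups overlapped in all 3 rows, and the highest value of each lay in an NPC1-deficient library of the second set.

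Rims1 stood apart from the other members. RIM1, its product, binds Munc13, Rab3 and calcium channels and so sets vesicles close to the channels. The gene lies on chromosome 1, 22286251 to 22805994 (minus strand, mm10), and no other annotated exon overlaps its own. Its normalized read count was 1972, 2508, 4894 and 6424 in NPC1-deficient libraries 1 to 4, against 11995, 10369, 16659 and 8351 in wildtype 1 to 4. All 4 NPC1-deficient libraries lay below all 4 wildtype libraries, and the means were 3949 ± 2082 and 11844 ± 3539 (SD, n = 4 each), the first being 33.3% of the second. Over all genes the log2 fold change of -1.70 (SE 0.32) did not pass (limma adjusted p = 0.0679). The lack of overlap between the groups by itself fixes the exact permutation p of Rims1 at 0.0286 (two-sided, 70 assignments). Cplx3 and Stxbp6, whose groups also lay apart, had the same value, so this test adds no separate evidence. Groups that did not overlap were found for 5 of 70 members in the lower direction (2.41% of all genes) and for 1, Syt15, in the higher direction (1.86% of all genes).

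The Rims1 difference was present in both library sets, at -2.33 (log2) in the first and -1.07 in the second. With the library set as a term Rims1 passed (limma adjusted p = 0.0143), and so it did within libraries 1 and 2 alone (1.99e-06), within libraries 3 and 4 alone (0.0445) and without NPC1-deficient 4 (0.0352). It did not pass when any other single library was left out, with limma adjusted p values up to 0.227 (without wildtype 3), nor with robust moderation (0.366). In the fits on 6 libraries it did not pass either, at adjusted p = 0.381 with limma, 0.340 with edgeR and 0.246 with DESeq2. The difference between the 2 sets, 1.25 in log2 units (SE 0.34), did not pass (limma adjusted p = 0.185), although it did without wildtype 3. Rims1 held 26.5% of the summed active zone level per kb in NPC1-deficient and 51.7% in wildtype libraries. The other RIM genes had log2 fold changes of 0.021 (Rims2), 0.031 (Rims3) and -0.049 (Rims4), none past the test.

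Markers of amacrine cells, the inhibitory interneurons of the inner retina, moved with Rims1. Slc32a1, which loads GABA and glycine into vesicles, had 107, 132, 183 and 267 normalized reads in NPC1-deficient and 611, 442, 856 and 320.3 in wildtype libraries. Gad1, which makes GABA, had 191, 268, 436 and 584 in NPC1-deficient and 1442, 1061, 1692 and 662 in wildtype libraries. For both genes the 8 libraries stood in the same order as for Rims1, from NPC1-deficient 1 as the lowest to wildtype 3 as the highest, an order shared by 20 of the other 15385 genes tested (0.13%). Of the 12 listed amacrine markers 9 had a negative fold change, 0 passed and the median was -0.64. None was at 0 in all libraries. Their summed level ran from 38510.3 to 42967 in NPC1-deficient and from 40636 to 47082 in wildtype libraries. The part of these cells in the Rims1 difference was not tested.

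**Figure D3:**
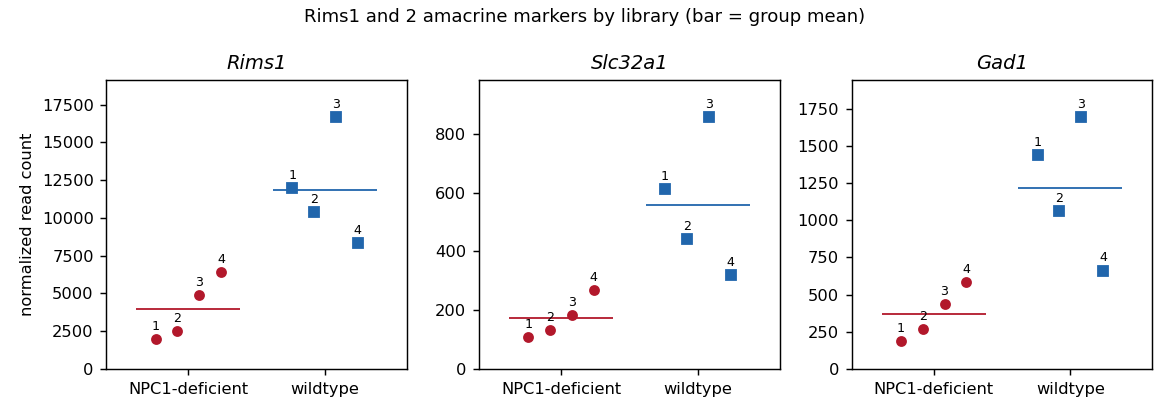
Normalized read count of Rims1 and of the amacrine markers Slc32a1 and Gad1 in each library (linear axes from 0; numbers are the library numbers, bars the group means). In all 3 panels the 4 NPC1-deficient libraries lie below the 4 wildtype libraries and the libraries stand in the same order.

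Of the 3 listed ribbon synapse genes, Cplx3, Cplx4 and Stx3, none passed, and the groups did not overlap for the first 2. Cplx3 (chromosome 9, 57599992 to 57606281, minus strand, mm10) had 415, 302, 315 and 328 normalized reads in NPC1-deficient libraries 1 to 4, against 934, 525, 732 and 487 in wildtype 1 to 4. Wildtype 1 was the highest of the 8. The log2 fold change of Cplx3 came to -0.94 (SE 0.18, limma adjusted p = 0.0704), and to -0.98 in the first set and -0.89 in the second. Cplx3 passed with the library set as a term (limma adjusted p = 0.0356), within libraries 3 and 4 alone (0.0167), without wildtype 1 (0.0390), without wildtype 4 (0.0365), and without wildtype 1 and NPC1-deficient 1 together (0.0175). It did not pass within libraries 1 and 2 alone (0.127), when any other single library was left out (up to 0.256, without wildtype 3), with robust moderation (0.107), or on 6 libraries with limma (0.330) or edgeR (0.258). Cplx4 had 20, 17, 18.5 and 9.29 in NPC1-deficient and 35.3, 29.3, 26.1 and 24.2 in wildtype libraries, a low count without overlap of the groups (log2 fold change -0.83, SE 0.27, limma adjusted p = 0.366). Stx3 had a log2 fold change of -0.11 (SE 0.084) with overlapping groups.

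Most photoreceptor and bipolar markers also had negative fold changes. Of the 16 listed rod markers 15 were negative (median -0.97), 0 passed, and none was at 0 in all libraries. Their summed level ran from 72568 to 76990.4 in NPC1-deficient and from 73279.9 to 82439.8 in wildtype libraries, but 91.4% of it came from Gnb1, which ganglion cells also express. Sag (rod arrestin) had 403, 308, 287 and 233 in NPC1-deficient and 1289, 532, 710.4 and 547 in wildtype libraries, with wildtype 1 the highest as for Cplx3. The same held for the amacrine marker Tfap2b, with 178, 236, 325 and 437 in NPC1-deficient and 1040, 662, 998 and 493 in wildtype libraries. For the amacrine markers Slc32a1 and Gad1, wildtype 3 was the highest. Of 12 bipolar markers 11 were negative with a median of -0.42, and 70.3% of their sum came from Isl1, which ganglion cells also express. The bipolar sums were 8498 to 11026 in NPC1-deficient and 10350.1 to 11857 in wildtype libraries. Of 5 cone markers tested 4 were negative, with sums of 336 to 428 in NPC1-deficient and 364 to 679 in wildtype libraries. None of the bipolar or cone markers was at 0 in all libraries. The part of these cells or of amacrine cells in the Cplx3 and Cplx4 differences was not tested. Among the listed cell types, only Mueller glia and horizontal cells had a marker that passed. Of 10 Mueller glia markers tested 7 were negative and 3 positive, and Apoe passed (log2 fold change -1.31, limma adjusted p = 0.0482). Of 3 horizontal cell markers tested 2 were negative and 1 positive, and Calb1 passed (-0.84, limma adjusted p = 0.0477). The part of Mueller glia and horizontal cells was not tested either.

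Further members with small unadjusted p-values lay outside the neuronal core. Stxbp6 (amisyn), which binds syntaxin in place of VAMP, had 336, 380.2, 325 and 418 normalized reads in NPC1-deficient and 581, 458, 555 and 439 in wildtype libraries. The groups did not overlap, and the fold change of Stxbp6 (log2) came to -0.47 (SE 0.11, limma adjusted p = 0.127), or -0.53 in the first set and -0.42 in the second. Syt6 had 1878, 1566, 1439 and 1431 in NPC1-deficient and 2028, 1622, 1856 and 1760.2 in wildtype libraries (-0.21, SE 0.093). Within libraries 3 and 4 alone Syt6 passed, at -0.33. Vamp3, a VAMP of recycling endosomes, had 279.5, 269, 348 and 335 in NPC1-deficient and 416, 394, 359.9 and 336 in wildtype libraries, and NPC1-deficient 1 and 2 were the 2 lowest libraries.

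None of the 5 listed genes that blood cells use to release granules passed, and 3 had negative and 2 positive fold changes. Vamp8 had 129, 135, 154 and 154 normalized reads in NPC1-deficient and 168, 161, 194 and 214 in wildtype libraries, without overlap (log2 fold change -0.36, SE 0.12, limma adjusted p = 0.436). Stxbp2 (Munc18-2) had 123, 151, 134 and 127 in NPC1-deficient and 204, 187, 161 and 144 in wildtype libraries (-0.37, SE 0.13). The rest of this list, Snap23, Stx11 and Unc13d (Munc13-4), had log2 fold changes of 0.0053, -0.015 and 0.28, and the median of the 5 was -0.015. All 14 microglial markers were negative (median -1.47), 0 passed, and their sum ran from 2673 to 4328 in NPC1-deficient and from 3719 to 15241 in wildtype libraries. Among wildtype libraries this sum was lowest in wildtype 1 and highest in wildtype 4. Stxbp2 was highest in wildtype 1 and lowest in wildtype 4, whereas Vamp8 was lowest in wildtype 2 and highest in wildtype 4. None of the 14 was at 0 in all libraries, and the part of microglia in the Vamp8 and Stxbp2 values was not tested.

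**Figure D4:**
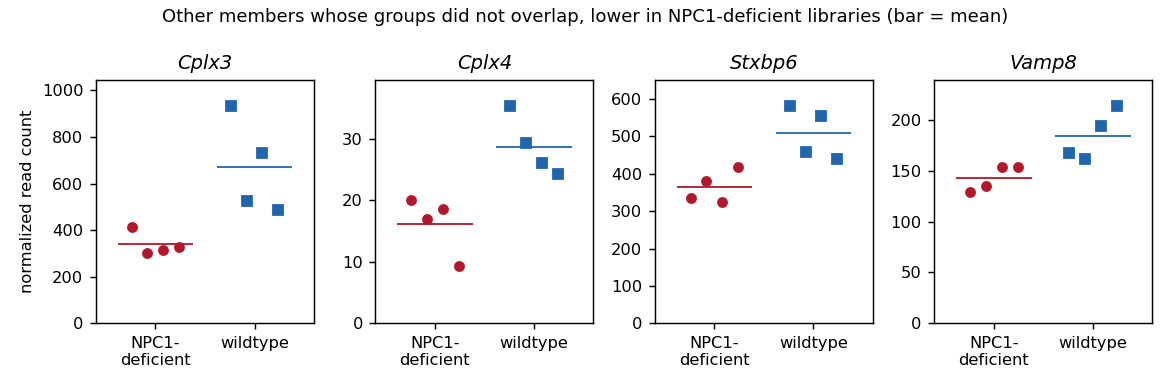
Normalized read count of the other 4 members whose groups did not overlap in the lower direction, by library in the order 1 to 4 (linear axes from 0, bars are group means of 4). The gap between groups is narrow for Stxbp6 and Vamp8, and in Cplx3 wildtype 1 and 3 lie well above wildtype 2 and 4.

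The remaining members given for their small p-values had small fold changes, apart from Syt15. Stxbp3a (Munc18-3) had 96.2, 96.1, 121 and 106 normalized reads in NPC1-deficient and 119.7, 127, 120.3 and 132 in wildtype libraries. Stx4a, its partner at the plasma membrane, had 789, 676, 596 and 672 in NPC1-deficient and 813, 731, 759.8 and 771 in wildtype libraries. Both pairs of groups overlapped, with log2 fold changes of -0.25 (SE 0.12) and -0.17 (SE 0.085). In the higher direction, Syt5 had 7378, 7056, 7506 and 7405 in NPC1-deficient and 6610.1, 6755, 6615 and 7178 in wildtype libraries (0.11, SE 0.046). Snap29, a SNAP of intracellular fusion including autophagosomes, had 2283, 2507, 2679 and 2469.8 in NPC1-deficient and 2171, 2193, 2333 and 2370.2 in wildtype libraries (0.13, SE 0.060). Syt15 had 15.4, 13, 16.4 and 13.4 in NPC1-deficient and 10.3, 12.1, 9.32 and 8.07 in wildtype libraries, just above the filter. The log2 fold change of Syt15 was larger, at 0.51 (SE 0.26), and its groups did not overlap. Neither Syt15 nor the others passed after adjustment. The 37 tested members outside the core and the 12 given for their small p-values had log2 fold changes between -0.23 (Stx2) and 0.28 (Unc13d).

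By family, syntaxins had 3 positive and 11 negative fold changes among 14 tested with a median of -0.028, and synaptotagmins 10 positive and 5 negative among 15 with a median of 0.040. All 7 syntaxin-binding proteins (median -0.051) and all 6 VAMP rows (median -0.089) were negative, and all 4 SNAP genes were positive (median 0.024). Among all genes tested 7994 were positive and 7392 negative. No family had a called member.

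Most neuronal members had fold changes of opposite sign in the 2 library sets. The neuronal core is a list of 20 symbols (21 rows) of conventional synapses. Within libraries 1 and 2, 18 of its 21 rows were higher in NPC1-deficient cells, and within libraries 3 and 4, 4 of 21 were. Higher in the first and lower in the second set were 15 of the 21 rows and 32 of all 70 members, against 26.8% of all genes. With quantile scaling these were 13 and 28, against 25.4% of all genes, and with upper-quartile scaling 14 and 29, against 23.5%. The core's median log2 fold change came to 0.10 in the first set and -0.12 in the second, while the median over all genes was 0.00095 and 0.00079.

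The split lay mostly among the NPC1-deficient libraries. Between NPC1-deficient 3 and 4 and NPC1-deficient 1 and 2 the median log2 difference of the core was -0.18, and between wildtype 3 and 4 and wildtype 1 and 2 it was 0.019. NPC1-deficient 3 and 4 both lay below NPC1-deficient 1 and 2 for 15 of 21 core rows and 33 of 70 members (27.5% of all genes). The same held in wildtype libraries for 2 core rows and 15 members (19.7% of all genes). For 4 core rows, Rims1, Bsn and both of Pclo, NPC1-deficient 3 and 4 both lay above. The ganglion cell markers did not show the turn of sign in their median, which was 0.033 in the first set and 0.0083 in the second. Single markers turned in both directions, however. Slc17a6 went from 0.23 to -0.045 and Thy1 from 0.19 to -0.045, as the core did. Isl1 went from -0.36 to 0.015 and Gap43 from -0.081 to 0.19. The median of the microglial markers was -0.66 in the first set and -2.25 in the second. Unlike the core, their summed level varied more among wildtype than among NPC1-deficient libraries. It was 4328, 3968, 4120 and 2673 in NPC1-deficient 1 to 4, and 3719, 10221, 8778 and 15241 in wildtype 1 to 4. The part of microglia in the split was not tested.

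Nsf had the smallest p-value for the difference between sets. The log2 fold change of Nsf came to 0.18 in the first set and -0.25 in the second, and the difference of -0.43 (SE 0.086) had a limma adjusted p of 0.0876. Cplx1 differed by -0.36 (SE 0.10), Syt1 by -0.25 (SE 0.081), Sv2a by -0.27 (SE 0.086) and Unc13a by -0.48 (SE 0.16), with limma adjusted p values of 0.177 to 0.238. None of the 70 members passed this interaction test, in which 12 genes (0.078%) did. At an unadjusted p under 0.05 there were 14 members with a negative interaction (7.21% of all genes), 10 of them in the core, and 3 with a positive one (6.19% of all genes), which were Rims1, Vamp3 and a Pclo row. Calls of single members appeared when a library was left out: Nsf and Vamp1 without NPC1-deficient 2, Rims1 without wildtype 3, and Sv2c, a vesicle glycoprotein, without wildtype 4. On the reads of 6 libraries edgeR called Vamp1, and DESeq2 called Cplx1, Nsf and Vamp1. How many of all genes these refits called for the interaction is not given, so these member calls cannot be set against a background.

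**Figure D5:**
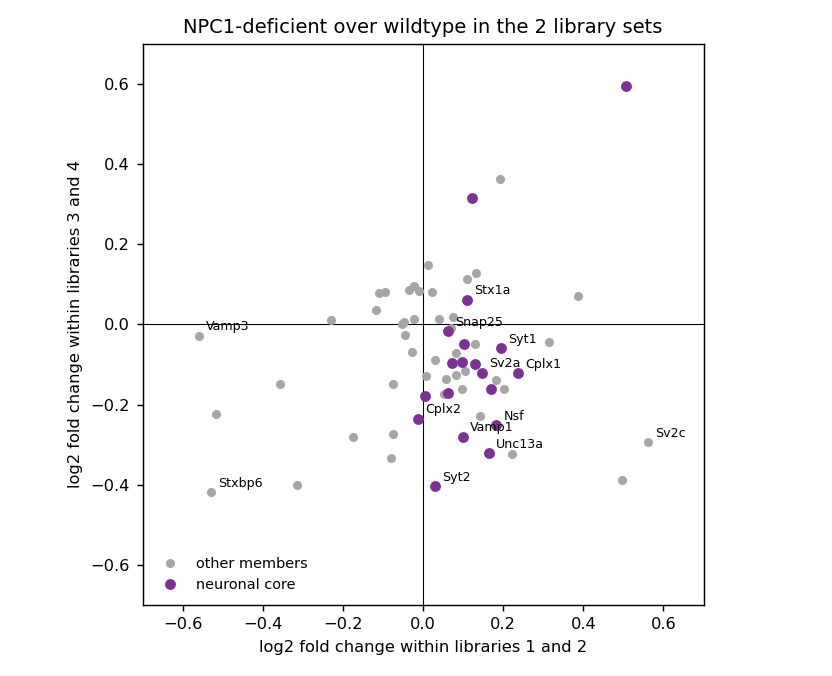
Log2 fold change (NPC1-deficient over wildtype) of members within libraries 1 and 2 (x axis) and within libraries 3 and 4 (y axis), with the neuronal core in purple. The lower right quadrant, higher in the first and lower in the second set, holds 15 of 21 core rows, and Rims1, Cplx3, Cplx4, Syt15 and a Pclo row lie outside the axes.

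Other genes of the vesicle cycle, listed for comparison, also gave no call when all 8 libraries were fitted without a covariate. The list holds transmitter transporters, Rab3 and its effectors, SNAP co-factors of NSF, liprins and endocytic proteins, and 51 of 52 were tested. None passed over all genes (limma), 2 were higher (2.39% of all genes) and 3 lower (4.37% of all genes) at an unadjusted p under 0.05, and the median was -0.011. Slc32a1, given above and also an amacrine marker, had a log2 fold change of -1.68 (SE 0.31, limma adjusted p = 0.0679). It was called with the library set as a term, within libraries 1 and 2 alone, without NPC1-deficient 4 and without wildtype 4. Scamp2, a carrier membrane protein, had 199.6, 212, 197 and 190.0 in NPC1-deficient and 248, 278, 264 and 292 in wildtype libraries without overlap (-0.43, SE 0.093, limma adjusted p = 0.0955). Rab3d, a GTPase of secretory vesicles, had 1727, 1804, 1751 and 1759 in NPC1-deficient and 1559, 1362, 1537 and 1452 in wildtype libraries without overlap (0.25, SE 0.058, limma adjusted p = 0.110). Higher in the first and lower in the second library set were 26 of the 51, against 26.8% of all genes.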

How the data were processed

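Libraries of ganglion cell RNA were made with a TruSeq kit, which keeps no strand information (per the labels' protocols). The submitters' processing notes list the build mm10, DESeq2 1.0.19, HTSeq 0.5.4p3 and CASAVA 1.8.2 but give none of them a role; no source used here states the aligner or the annotation release. The deposited signal is normalized reads: in the deposited values of every library 100% of entries were whole multiples of the smallest nonzero one within 1e-06, as gene counts over a library's size factor would be. Recovered totals of 6 libraries ran from 33030175 to 44050118 reads. For library 2 of both groups this step lay within 1% of 1, too close to rounding, so count tests left both out; their normalized sums were 37950135 (NPC1-deficient) and 38015213 (wildtype). A value of 0 allows up to 3 reads, a normalized value of 2.69 to 3.42 (counting error only).

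Values were taken as log2(value + 1), which understates changes of low genes, for the 15386 genes with a mean of at least 10. They were fitted with limma 3.58.1 in R 4.3.3 (mean-variance trend, no covariate, Benjamini-Hochberg at 0.05 over all genes). The interaction of genotype and library set was fitted likewise. Alternatives were other pseudocounts, filters and scalings, robust moderation, a replicate block, the library set as a term or each set alone, and each library left out. After the data were seen, edgeR 4.0.16 and DESeq2 1.42.0 on recovered reads of 6 libraries, limma on those 6, and a fit without library 1 of both groups were added. The fit was tested on simulated data. Exon lengths and positions came from GENCODE M21 (mm10), which held 24471 of 24942 identifiers; the second Pclo row was not among them.

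Members and lists were chosen with earlier results of these data known. Values in every library are given for the neuronal core and for the 12 further members with the smallest p, except for items not reported here. Genes named for the order of their libraries were chosen after their values were seen.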

Additional observations from a re-analysis of the deposited data

Results flagged for a closer look

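Of 62 groups of 4 libraries checked for a value far from the rest (31 members in each genotype), 1 stood out. Chance flags about 1 in every 20 such groups, so 1 of 62 is no more than chance gives. Syt2 in wildtype 1 was at 352 normalized reads, with the other 3 wildtype libraries between 307 and 314 and the NPC1-deficient libraries at 375, 306, 234 and 234.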

How the results depend on the processing

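The count of 0 called members held with both other pseudocounts, both other filters, both scalings, robust moderation, and in edgeR and limma on 6 libraries. It was 2 with the replicate block, 2 with the library set as a term (Rims1 and Cplx3 each time), 1 within libraries 1 and 2 (Rims1), 4 within libraries 3 and 4 (Rims1, Cplx3, Nsf and Syt6), 1 without library 1 of both groups (Cplx3), 2 with DESeq2, and 0 to 1 when 1 library was left out. Over the alternatives the adjusted p ran from 1.99e-06 to 0.381 for Rims1 and from 0.00029 to 0.330 for Cplx3. The log2 fold change of Rims1 ran from -2.33 to -1.07 and that of Cplx3 from -1.07 to -0.76. Same-numbered libraries did not deviate together (correlations of -0.0659 to -0.0169 across genes), so the block joins libraries that share only a number. The members' median log2 fold change came to 0.059 in the first library set, -0.094 in the second, and -0.035 to 0.017 with 1 library left out. Over all genes, 16 calls became 10 at a minimum mean of 50, 34 with the block, 99 with the set term, 57 and 335 within the sets, 170 without library 1 of both groups, 1, 1 and 99 with limma, edgeR and DESeq2 on 6 libraries, and 2 to 144 with 1 left out. Other vesicle cycle genes called were 1 with the set term, 1 and 4 within the sets, and 0 to 1 with 1 left out. Members called in the interaction were 1, 1 and 3 with limma, edgeR and DESeq2 on 6 libraries, and 0 to 2 with 1 left out. The matching interaction counts over all genes are not given. The causes of these shifts were not tested.

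Log2 fold changes near zero turned sign. Within libraries 1 and 2 the values were Vamp2 0.0055, Syt2 0.029, Vamp1 0.10, Nsf 0.18, Unc13a 0.16 and the Pclo row ENSMUSG00000098239 -0.21. Within libraries 3 and 4 the values were Syn2 -0.049, Snap25 -0.017, Syp -0.10, Snap91 -0.093, Cplx1 -0.12, Syt1 -0.060, Syn1 -0.16 and Sv2a -0.12. With quantile scaling the values were Snap25 -0.028, Syp -0.0093, Snap91 -0.026, Syn1 -0.017 and Sv2a -0.031. Without library 1 of both groups the values were Syn2 -0.013, Snap25 -0.0037, Syp -0.044, Snap91 -0.015, Cplx1 -0.010, Syn1 -0.025 and Sv2a -0.056. With limma on 6 libraries the values were Syp -0.0020, Snap91 -0.045, Syn1 -0.079 and Sv2a -0.0073. With edgeR the values were Snap91 -0.046, Syn1 -0.072 and Sv2a -0.0017. With DESeq2 the values were Snap91 -0.045, Syn1 -0.072 and Sv2a -0.0013. With 1 library left out the ranges were -0.012 to 0.058 for Syn2, -0.013 to 0.045 for Snap25, -0.049 to 0.050 for Syp, -0.038 to 0.034 for Snap91, -0.010 to 0.11 for Cplx1, -0.073 to 0.061 for Syn1, -0.050 to 0.055 for Sv2a, -0.13 to 0.037 for Nsf, -0.16 to 0.017 for Unc13a and -0.25 to 0.0040 for Vamp1. Low counts limit Cplx4, Syt15, Bsn and both Pclo rows.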

Other observations

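The order of the 8 libraries that Rims1 shows, from NPC1-deficient 1 (lowest) through 2, 3 and 4 to wildtype 4, 2, 1 and 3 (highest), was shared by 20 genes, which were picked out by this order after their values were seen. The 20 genes were Csrp3, Espn, Gabrd, Gad1, Galnt15, Gfra1, Gm14204, Gm2990, Gng7, Lamp5, Megf10, Moxd1, Npy, Pdyn, Pkp1, Pnoc, Rprml, Slc25a18, Slc32a1 and Sox2, and 4 are given as examples. Npy (neuropeptide Y) had 173, 358, 785 and 891 normalized reads in NPC1-deficient and 2024, 1572, 2478 and 1338 in wildtype libraries. Pnoc, the precursor of nociceptin, had 447, 561, 978 and 1104 in NPC1-deficient and 1701, 1363, 2084 and 1164 in wildtype libraries. Gabrd, a GABA receptor subunit, had 54.4, 92.1, 178 and 226 in NPC1-deficient and 507, 485, 703 and 337 in wildtype libraries. Sox2, a transcription factor of progenitors, glia and some amacrine cells, had 54.4, 83.1, 199 and 226 in NPC1-deficient and 513, 361, 521 and 237 in wildtype libraries. No other release machinery member shared the order.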
